A study of Bos grunniens with 6 samples.

Results

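The genes described here are 10 interferon-stimulated genes that were chosen by symbol from the deposited expression table of cultured yak (Bos grunniens) hair follicle cells. They are ISG15 (G1P2 in the table), MX2, RSAD2, CMPK2, RIGI (DDX58), HERC6, IFI44, IFIH1 (MDA5), IFIT2 (CIG-42) and IRF9 (ISGF3G). They were picked because their mRNA was higher in hair matrix cells than in dermal papilla cells and differed among the hair matrix cultures, so their own values are a description and carry no test. All 10 symbols were found, and since HERC6 has 2 rows in the table they cover 11 rows of 15646.

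Dermal papilla cells (DPC) are the mesenchymal cells at the base of the follicle, whereas hair matrix cells (HMC) form the epithelium that surrounds the papilla. RNA of 3 cultures of each, wild type and from skin, was sequenced after growth in one medium with 10% serum, 20 ng/mL EGF and 10 ng/mL IGF1. No interferon or virus is named in the labels, which call the cultures biological replicates without saying whether they came from separate animals. The p-values below therefore measure the spread between these samples, which may be technical.

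The values are FPKM, fragments scaled to gene length and to the mapped fragments of the library, so levels can be compared between genes. Whole reads could be recovered from them, and these summed to 13.1 to 13.4 M per DPC library and 13.7 to 14.0 M (M, mega) per HMC library. Recovered reads are lower limits, since a factor common to all libraries of a gene is lost. The 8 matched epithelial markers summed to 9639 to 9927 FPKM in HMC and to 61.9 to 84.4 FPKM in DPC. Among them KRT14, the keratin of basal epidermal cells, did not pass the test (14.7 to 15.4 FPKM in HMC, 12.4 to 19.7 FPKM in DPC, limma adjusted p = 0.605). The list holds no marker particular to the hair matrix, so HMC were checked only as epithelial cells. The 9 matched mesenchymal markers summed to 19037 to 19836 FPKM in DPC and to 611 to 723 FPKM in HMC.

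Interferon-stimulated genes encode the cell's antiviral proteins. Type I and type III interferons bind their receptors, JAK kinases phosphorylate STAT proteins, and these join IRF9 to form the complex ISGF3, which binds the promoters of such genes. RIGI and IFIH1 detect viral RNA in the cytoplasm and signal toward interferon production, and many cells express these genes at a low level without infection.

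All 11 rows were higher in each HMC library than in each DPC library. Over all 11883 genes tested, those averaging 0.5 FPKM or more, 47.1% had non-overlapping groups with HMC higher, and since the genes were chosen for this contrast nothing is read from their count. All 11 rows passed that filter, IFI44, RSAD2 and MX2 only through their HMC values. Summed over the rows, the level was 13.5, 12.5 and 12.1 FPKM in DPC replicates 1, 2 and 3. In HMC replicates 1, 2 and 3 it was 126, 66.3 and 138 FPKM. The sum was thus lowest in HMC replicate 2 among the matrix cultures and still far above every DPC library. In bulk RNA, fewer cells that express a gene and less RNA per cell cannot be told apart.

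**Figure D1:**
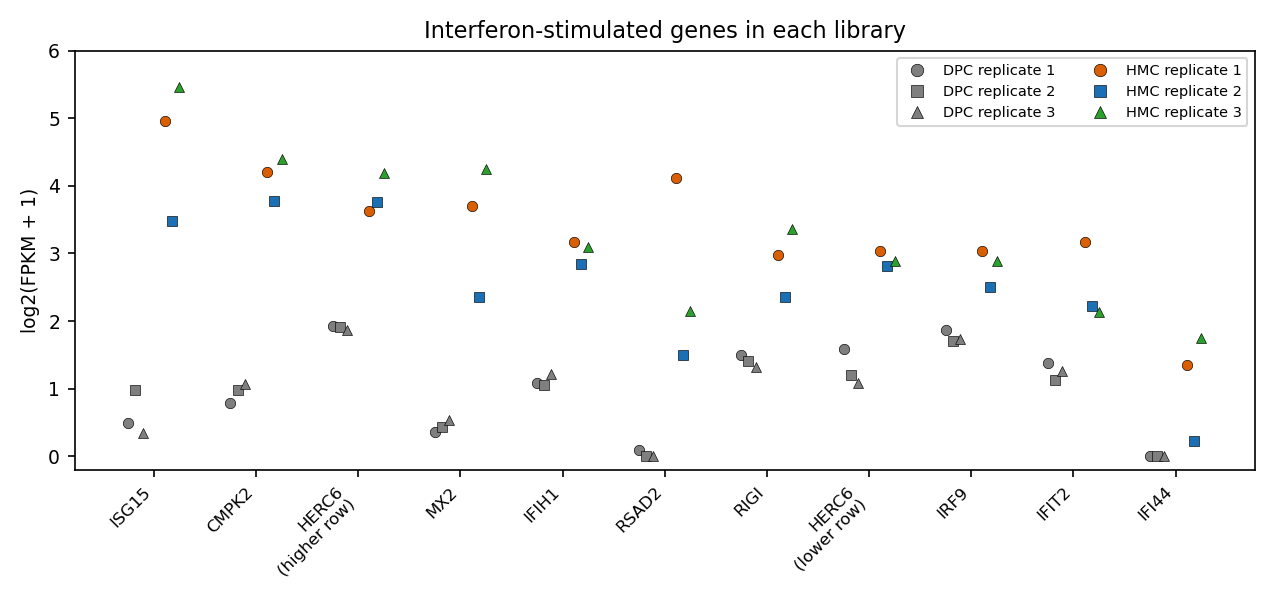
Level of each row in each library as log2(FPKM + 1), grey for DPC and coloured for HMC, with circles, squares and triangles for replicates 1, 2 and 3, ordered by mean HMC level. No HMC point overlaps the DPC points of the same gene, and HMC replicate 2 (blue squares) is the lowest matrix library in 9 of 11 rows.

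The RNA sensors RIGI and IFIH1 were both detected in DPC and differed in how evenly the matrix cultures expressed them. RIGI (ENSBGRG00000001303) stood at 1.82, 1.64 and 1.505 FPKM in DPC replicates 1 to 3 and at 6.86, 4.11 and 9.30 FPKM in HMC replicates 1 to 3. The groups did not overlap, and the highest matrix culture had 2.27 times the level of the lowest. The HMC mean was 6.75 ± 2.60 FPKM against 1.66 ± 0.16 FPKM in DPC (SD, n = 3 each), a 4.07-fold difference. IFIH1 (ENSBGRG00000017350) stood at 1.11, 1.08 and 1.33 FPKM in DPC and at 8.01, 6.17 and 7.58 FPKM in HMC. Its matrix cultures lay closer together, with a ratio of highest to lowest of 1.30, while the fold between the group means was larger, at 6.19.

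IRF9, the DNA-binding subunit of ISGF3, had the smallest fold between group means of the genes for which one can be given. Its row (ENSBGRG00000016917) stood at 2.66, 2.26 and 2.31 FPKM in DPC and at 7.20, 4.69 and 6.40 FPKM in HMC. The HMC mean was 6.09 ± 1.28 FPKM and the DPC mean 2.41 ± 0.22 FPKM (SD, n = 3 each), a 2.53-fold difference. HMC replicate 2 was again the lowest matrix library, and it remained above the highest DPC value.

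ISG15 encodes a ubiquitin-like protein that is attached to other proteins during the interferon response, and it had the highest mean HMC level of the 11 rows. The values of ISG15 (ENSBGRG00000016212) were 0.406, 0.969 and 0.273 FPKM in DPC, which rest on 3, 7 and 2 recovered reads. In HMC they were 30.1, 10.2 and 43.3 FPKM, from 228, 78 and 335 reads. HMC replicate 3 had 4.25 times and replicate 1 had 2.96 times the level of replicate 2. The ratio of group means was 50.7, and the few DPC reads give the pooled read ratio of 51.0 a 95% interval of 28.98 to 99.2, which covers counting error only. Among the matrix cultures the coefficient of variation was 59.8%, and in DPC, on those few reads, it was 67.2%.

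HERC6 belongs to the family of HECT and RCC1-domain ligases, whose relative HERC5 attaches ISG15 in human cells. The table splits HERC6 into 2 rows, while RefSeq's yak assembly Bosgru_T2T1.0 lists 1 gene. The lower row (ENSBGRG00000020988) stood at 1.99, 1.30 and 1.11 FPKM in DPC and at 7.17, 6.06 and 6.42 FPKM in HMC. The higher row (ENSBGRG00000021028) stood at 2.81, 2.75 and 2.64 FPKM in DPC and at 11.4, 12.6 and 17.3 FPKM in HMC. The rows had like folds between group means, 4.46 and 5.03, but ordered the matrix cultures differently, since replicate 1 was highest in the lower row and lowest in the higher row. No source used here says how reads were divided between them, which leaves the levels of the single rows uncertain.

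MX2 encodes a dynamin-like GTPase that restricts retroviruses and herpesviruses. Its row (ENSBGRG00000014066) stood at 0.282, 0.351 and 0.445 FPKM in DPC and at 12.1, 4.10 and 18.0 FPKM in HMC, from 1010, 347 and 1541 reads. The order of the matrix cultures was that of ISG15, and so was the size of the spread, with replicate 3 at 4.40 times and replicate 1 at 2.95 times replicate 2. The ratio of group means was 31.7.

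RSAD2 (viperin, a radical-SAM enzyme) and CMPK2 (a mitochondrial nucleotide kinase) make and feed the antiviral nucleotide ddhCTP, and they are next to each other in the RefSeq gene order. RSAD2 (ENSBGRG00000015611) was seen with 1 recovered read in DPC replicate 1 (0.068 FPKM) and was listed at 0 in DPC replicates 2 and 3. In HMC it stood at 16.3, 1.83 and 3.44 FPKM, from 246, 28 and 53 reads. HMC replicate 1 was thus far above both other cultures, at 4.75 times replicate 3 (95% counting interval 3.51 to 6.51) and 8.89 times replicate 2. With 327 reads in HMC and 1 in DPC, the ratio of the groups was 312, with a counting interval of 55.6 to 12361.

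CMPK2 (ENSBGRG00000015652) stood at 0.732, 0.972 and 1.11 FPKM in DPC and at 17.5, 12.7 and 20.1 FPKM in HMC. Its matrix cultures differed by no more than 1.59 times, and the ratio of group means was 17.9. The neighbouring genes therefore both had HMC above DPC, but HMC replicate 1, which stood apart for RSAD2, lay between the other cultures for CMPK2.

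IFIT2 binds viral RNA and limits its translation. Its row (ENSBGRG00000017758) stood at 1.60, 1.18 and 1.39 FPKM in DPC and at 8.01, 3.65 and 3.40 FPKM in HMC. As with RSAD2, replicate 1 was the highest matrix library, at 2.35 times replicate 3 (95% counting interval 1.84 to 3.02), while replicates 2 and 3 were nearly level. The ratio of group means was 3.62. IFIT2 was the only one of the 11 rows in which HMC replicate 3 was the lowest.

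IFI44 encodes a cytoplasmic protein that interferon induces strongly. Its row (ENSBGRG00000002150) was listed at 0 in all 3 DPC libraries and stood at 1.54, 0.174 and 2.36 FPKM in HMC, from 35, 4 and 55 reads. The HMC mean was at least 10.4-fold higher than the level that 3 reads per DPC library would give, which was 0.130 FPKM. HMC replicate 3 had 13.6 times the level of replicate 2, with a 95% counting interval of 5.02 to 51.7.

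On the log2(FPKM + 1) scale, where changes of low genes come out too small, the differences DPC minus HMC ran from -4.03 for ISG15 to -1.04 for IRF9, with a median of -1.92. The median over all genes tested was -0.15. CMPK2 at -3.18 and MX2 at -2.99 followed ISG15, and IFI44 at -1.11 was among the smallest, with the lowest mean HMC level of the rows. The differences of the most variable rows depended on single matrix cultures, as that of RSAD2 went from -2.56 to -1.79 without HMC replicate 1 and that of IFI44 to -1.55 without replicate 2 and -0.79 without replicate 3. Rescaling the libraries left all 11 differences below 0, with a median of -1.81 after median-of-ratios and -1.78 after quantile normalization.

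Among the 3 matrix cultures the 11 rows did not move as one. HMC replicate 2 was lowest in 9 rows, compared with 28.8% of all genes tested. The order was replicate 3, then 1, then 2 in 5 rows (ISG15, MX2, CMPK2, RIGI and IFI44). It was replicate 1, then 3, then 2 in 4 rows (RSAD2, IFIH1, IRF9 and the lower row of HERC6). IFIT2 and the higher row of HERC6 had other orders.

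The size of the spread differed more than its direction. The range between the highest and lowest matrix library, on log2(FPKM + 1), was 2.61 for RSAD2, 1.99 for ISG15, 1.90 for MX2 and 1.52 for IFI44. It was 1.03 for IFIT2 and 1.01 for RIGI, between 0.53 and 0.63 for IRF9, the higher row of HERC6 and CMPK2, and 0.33 and 0.21 for IFIH1 and the lower row of HERC6. The median of the rows was 1.01, beside 0.17 for all genes tested. In DPC the same rows had a median range of 0.17, beside 0.15 for all genes. Levels near 0, as those of IFI44, RSAD2, MX2 and ISG15 in DPC, keep the range small on this scale. The DPC range was below the HMC range in every row but the lower row of HERC6 (0.50 in DPC, 0.21 in HMC).

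**Figure D2:**
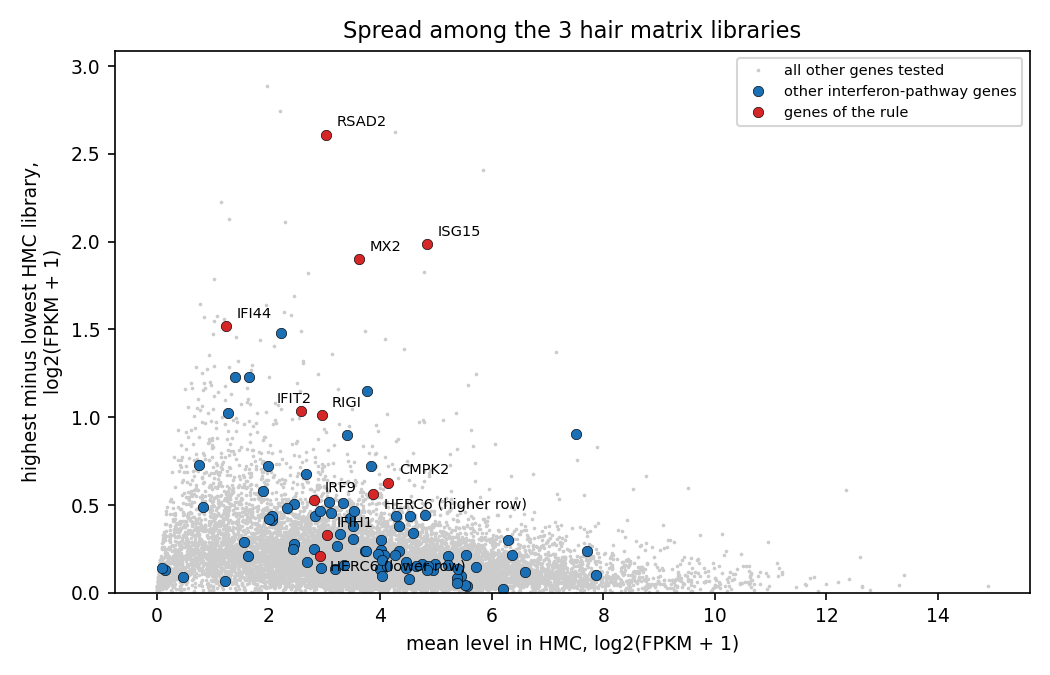
Range between the highest and lowest HMC library against the mean HMC level, both on log2(FPKM + 1), for all 11883 genes tested (grey), other interferon-pathway genes (blue) and the 11 rows (red). RSAD2, ISG15 and MX2 have ranges of 1.90 or more, while IFIH1 and the lower row of HERC6 lie within the grey points of their level.

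Few genes varied as much as the rows with the widest ranges. The rows were picked for this spread, so their ranks among all genes are a description and not a test. Of the genes tested, 3 had a wider range than RSAD2, 8 a wider one than ISG15 and 9 a wider one than MX2. When only genes with at least the same mean HMC level were taken, 1 of 3494 exceeded ISG15, 3 of 6273 exceeded MX2 and 15 of 10508 exceeded IFI44. The lower row of HERC6 was exceeded by 4412 of all genes tested, so its matrix cultures were no more apart than those of many genes.

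The spread is also given in recovered reads, as a description. The dispersion index, the variance of the recovered reads among libraries relative to counting error, would be 1 if counting error alone acted. Among HMC libraries it was 363 for MX2, 134 for RSAD2 and 76.6 for ISG15, and 1.47 for the lower row of HERC6. Its median was 36.3 over the 11 rows and 1.76 over all genes. In DPC, where several of the rows have few reads and the index has little room to rise, the medians were 0.95 and 1.37.

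A joint count was made after the values were seen, and it reuses the spread for which the 11 rows were picked, so nothing is read from their share. Of the 10839 genes tested with an HMC mean of at least 1 FPKM, 78 (0.720%) had both HMC replicate 1 and replicate 3 at 1.5 times replicate 2 or more. These included 5 of the 11 rows (ISG15, MX2, RSAD2, RIGI and IFI44) and 7 of 79 other interferon-pathway genes (EPSTI1, HERC5, IFI44L, IFITM3, OAS1, USP18 and XAF1). In a second count, which overlaps the first, 63 genes (0.581%) had HMC replicate 1 at 2 or more times replicate 3, among them RSAD2 and IFIT2 and none of the 79.

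**Figure D3:**
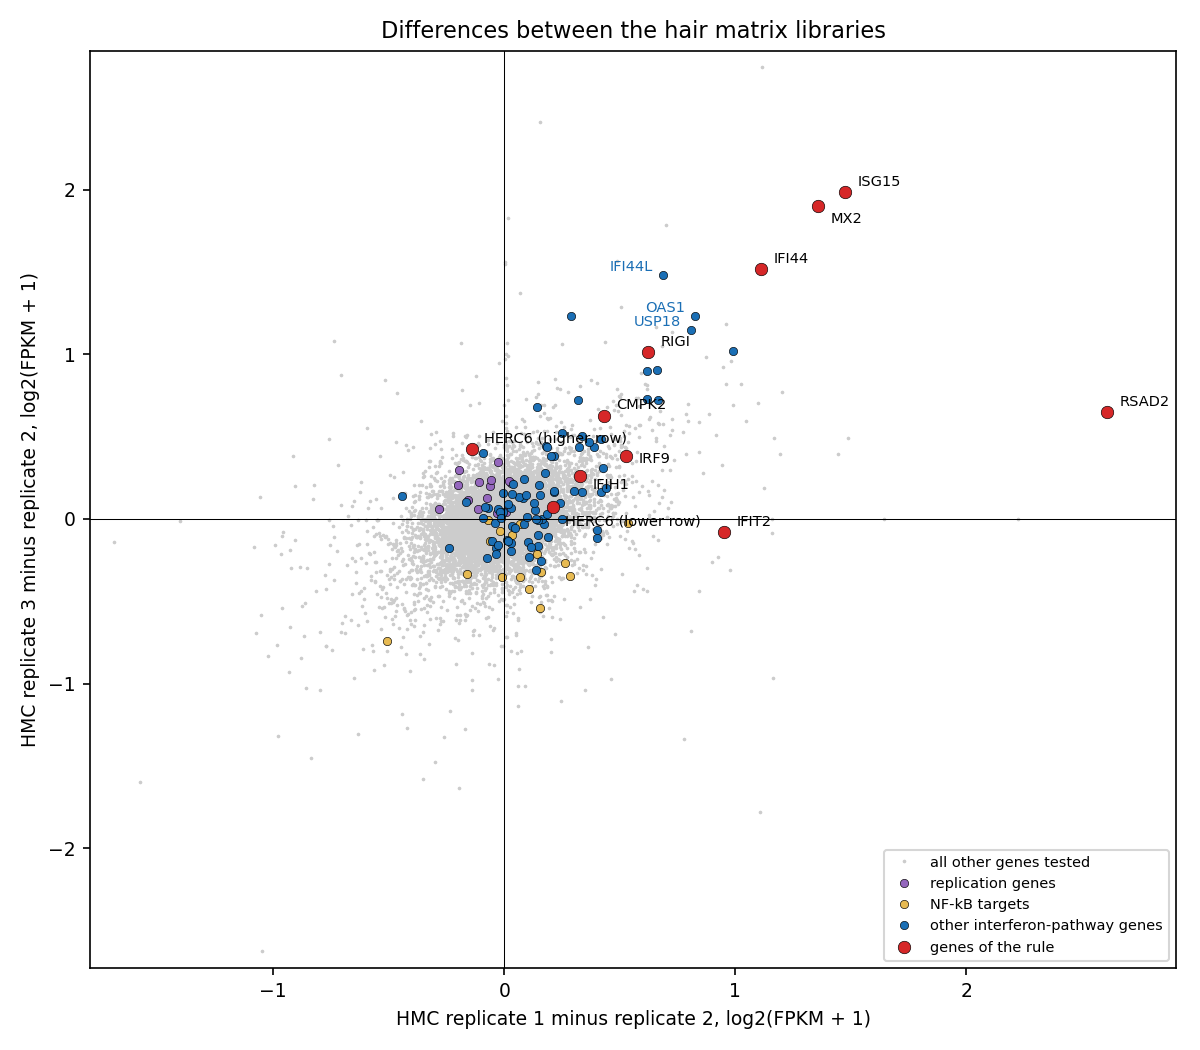
HMC replicate 1 minus replicate 2 (horizontal) and replicate 3 minus replicate 2 (vertical) on log2(FPKM + 1) for all genes tested, with gene groups in colour. ISG15, MX2 and IFI44 lie at the upper right, RSAD2 and IFIT2 lie to the right because replicate 1 is high, and the NF-kB targets lie mostly below the horizontal line.

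Near neighbours on the chromosome, taken from the RefSeq gene order of Bosgru_T2T1.0, did not share the direction of these genes in every case. IFIT3 (CIG-49), the neighbour of IFIT2 and its binding partner in human cells, was higher in DPC, at 2.83, 2.17 and 2.59 FPKM against 0.862, 0.213 and 1.01 FPKM in HMC (log2 difference 1.09, limma adjusted p = 0.000873). HERC5 (CEB1), separated from HERC6 by 1 gene, was higher in DPC too, at 7.37, 7.05 and 8.01 FPKM against 3.49, 1.83 and 3.66 FPKM in HMC (log2 difference 1.12, limma adjusted p = 0.000589). In both, HMC replicate 2 was the lowest matrix library, as in most of the 11 rows, although the direction between the cell types was the opposite.

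IFI44L (GS3686), next to IFI44, was detected in DPC at 1.71, 1.66 and 1.64 FPKM, where IFI44 was listed at 0. In HMC it stood at 3.22, 1.62 and 6.29 FPKM, so replicate 2 lay at the DPC level. The comparison of the cell types did not pass (log2 difference -0.70, limma adjusted p = 0.0751). Without HMC replicate 2, the library seen to be low, the comparison passed, with a difference of -1.06 and a limma adjusted p of 0.00342. It did not pass without HMC replicate 1 (limma adjusted p = 0.136) or without any 1 of the DPC replicates (limma adjusted p = 0.130 to 0.143). The fit without HMC replicate 3, the highest matrix library of IFI44L, is not reported here.

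**Figure D4:**
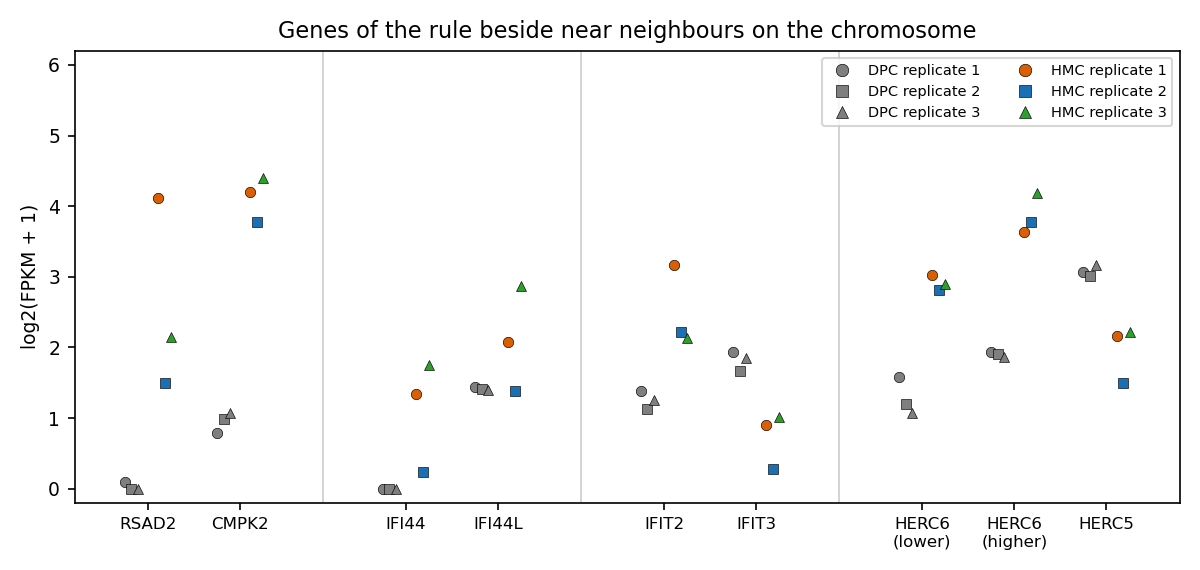
Level as log2(FPKM + 1) in each library for RSAD2 and CMPK2, IFI44 and IFI44L, IFIT2 and IFIT3, and the 2 HERC6 rows and HERC5, with symbols and colours for libraries as in the legend. IFIT3 and HERC5 are higher in the grey DPC libraries, unlike IFIT2 and HERC6, and replicate 2 is the lowest HMC library of IFI44, IFI44L, IFIT3 and HERC5.

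The rest of the interferon pathway was read from lists of receptors, sensors, transcription factors, effectors, ISG15 conjugation and negative regulators. Of 133 listed symbols outside the 10 genes, 96 were found, 49 under the current symbol and 47 under an older one, and 84 of them were tested. MX1, IFIT1, IRF7, OASL and DDX60 are among the 37 not matched and were not analysed here. Of the 84, 56 were higher in HMC, 13 were higher in DPC and 15 did not pass (limma adjusted p under 0.05). Over all genes tested 75.9% passed, 46.2% higher in HMC and 29.7% higher in DPC. The split was 47 to 19 after median-of-ratios scaling and 46 to 21 after quantile normalization, and these scalings move the median of all genes to -0.02 and 0.05. The median log2 difference of the 84 was -0.62, beside -0.15 for all genes.

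**Figure D5:**
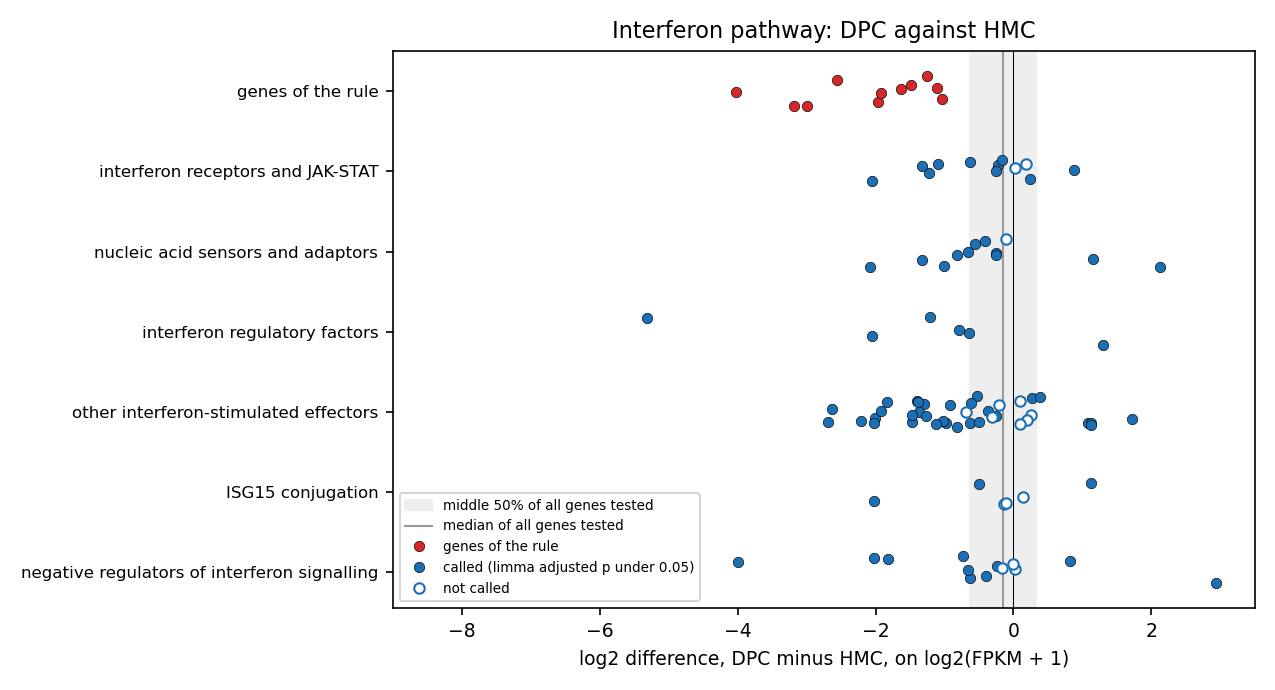
Log2 difference DPC minus HMC, on log2(FPKM + 1), of the 11 rows (red) and of the tested genes in each pathway list (blue, filled where limma passed), with the middle 50% of all genes tested in grey. The 11 rows lie between -4.03 and -1.04, and the lists spread over both directions.

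Interferon genes themselves were at or near 0. IFNB1 was listed above 0 only in DPC replicate 3 (0.133 FPKM), and IFNL3 (IL28B) only in HMC replicate 1 (0.163 FPKM). Among rows named after their values were seen, IFNA17 reached at most 0.476 FPKM, in DPC replicate 1, and IFNT1 at most 0.134 FPKM, in HMC replicate 1. The other listed interferon genes were not matched.

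Receptor chains for type I and type III interferons were higher in HMC. Of 12 tested receptors and signal carriers, 8 were higher in HMC, 2 were higher in DPC and 2 did not pass. The type I receptor chains IFNAR1 (IFNAR; HMC mean 46.4 ± 0.66 FPKM, DPC mean 19.4 ± 0.65 FPKM, SD over 3 libraries) and IFNAR2 (IFNARB) had log2 differences of -1.22 and -1.33 (limma adjusted p = 7.95e-08 and 6.98e-07). IFNLR1 (IL28RA), the chain specific to type III interferons, was listed at 0 in all DPC libraries and stood at 3.72, 3.23 and 2.54 FPKM in HMC (limma adjusted p = 7.79e-07). IFNGR1, the ligand-binding chain of the type II receptor, was higher in DPC (log2 difference 0.88, limma adjusted p = 3.29e-05). IFNGR2, the most abundant of the list, differed by -0.16, beside the median of -0.15 over all genes, and its sign turned after quantile normalization (0.15). STAT2, a subunit of ISGF3, was higher in HMC (-1.10, limma adjusted p = 2.79e-06). HMC replicate 2 was the lowest matrix library in 2 of these 12 genes, unlike its place in the 11 rows.

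Among 12 tested sensors and adaptors, 9 were higher in HMC, 2 were higher in DPC and 1 did not pass. DHX58 (D11LGP2E), the third RIG-I-like receptor, stood at 0.052, 0.248 and 0.245 FPKM in DPC and at 4.43, 3.06 and 4.68 FPKM in HMC (log2 difference -2.09, limma adjusted p = 2.83e-06). EIF2AK2 (PKR), the kinase activated by double-stranded RNA, had a difference of -0.66 (limma adjusted p = 0.00622), and IKBKE (IKKE), a kinase that activates IRF3, one of -1.32 (limma adjusted p = 2.21e-05). IFI16 (IFNGIP1), a DNA sensor, was higher in DPC (2.12, limma adjusted p = 0.000154), and its HMC values of 1.51, 1.05 and 3.82 FPKM again had replicate 3 highest and replicate 2 lowest. In 8 of the 12, HMC replicate 2 was lowest.

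Of the 6 tested interferon regulatory factors other than IRF9, 5 were higher in HMC and IRF1 was higher in DPC (log2 difference 1.31, limma adjusted p = 1.53e-05). IRF8 was listed at 0 in all DPC libraries and stood at 3.51, 2.44 and 3.66 FPKM in HMC. IRF3, which the RNA sensors activate, was the most abundant of them, with a difference of -0.64 (limma adjusted p = 6.97e-05).

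Of 38 tested effectors, 25 were higher in HMC, 6 were higher in DPC and 7 did not pass. The order of the matrix cultures was replicate 3, then 1, then 2 in 20 of them (52.6%, beside 15.6% of all genes). OAS1, which makes the activator of RNase L, stood at 0.0134, 0 and 0 FPKM in DPC and at 1.74, 0.541 and 2.62 FPKM in HMC (limma adjusted p = 0.00249). XAF1, a pro-apoptotic protein, stood at 0.158, 0.215 and 0.053 FPKM in DPC and at 1.90, 0.456 and 1.95 FPKM in HMC (limma adjusted p = 0.00670). Both followed ISG15 and MX2 in having replicate 2 well below the other matrix cultures.

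Other effectors differed between the cell types with less spread among the matrix cultures than OAS1 and XAF1. The death ligand TNFSF10 (APO2L; log2 difference -2.70, limma adjusted p = 5.93e-08), the ADP-ribosyltransferase PARP10 (-2.21, limma adjusted p = 9.16e-08) and SHISA5 (SCOTIN; -1.47, limma adjusted p = 6.91e-09) had HMC ranges of 0.25, 0.16 and 0.10. The lectin gene LGALS9 (-2.63, limma adjusted p = 1.50e-06) had a wider range of 0.68, beside a median of 0.17 over all genes tested. SHISA5 was the most abundant effector, at 241, 233 and 224 FPKM in HMC.

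The genes of ISG15 conjugation and removal were only in part higher where ISG15 was. Of 6 tested genes, ARIH1 and USP18 were higher in HMC (33.3%, beside 46.2% of all genes tested). HERC5 was higher in DPC, and UBA7, UBE2L6 (UBCH8) and TRIM25 (EFP) did not pass. UBA7, the activating enzyme, stood at 2.81, 2.42 and 2.67 FPKM in DPC and at 3.68, 2.50 and 2.92 FPKM in HMC (limma adjusted p = 0.3004). USP18 (ISG43), the protease that removes ISG15, stood at 1.37, 2.59 and 2.72 FPKM in DPC and at 13.3, 7.17 and 17.1 FPKM in HMC (log2 difference -2.02, limma adjusted p = 0.000297). In all 6 genes HMC replicate 2 was the lowest matrix library.

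Of 13 tested negative regulators, USP18 included, 8 were higher in HMC, 2 were higher in DPC and 3 did not pass. The phosphatase PTPN6 (HCP) was higher in HMC (log2 difference -4.00, limma adjusted p = 1.57e-09), and SOCS1 (SSI1), an inhibitor of JAK kinases, was higher in DPC (2.94, limma adjusted p = 2.75e-07). PTPN11 (PTP2C), the most abundant, did not pass (0.02, limma adjusted p = 0.743), but was higher in DPC after median-of-ratios scaling (0.17, limma adjusted p = 0.00584).

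A list of MHC class I presentation and immunoproteasome genes, many of which interferon also induces, differed between cell types and little among the matrix cultures. The list also holds CIITA (MHC2TA), a regulator of MHC class II, and WARS1 (WARS), a tRNA synthetase, and both are in the counts. Of 11 tested, 9 were higher in HMC and 2 higher in DPC, with a median HMC range of 0.14 and no gene above 0.5. TAP1, the peptide transporter subunit, stood at 30.0, 28.8 and 31.9 FPKM in HMC and at 2.72, 1.95 and 2.85 FPKM in DPC. Replicate 2 was the lowest matrix library in 3 of the 11.

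Other gene groups also set the matrix cultures apart, and NF-kB targets and replication genes did so in other orders. Over all genes tested, HMC replicate 3 was highest in 36.8% and lowest in 34.3%, and replicate 2 was lowest in 28.8%. Of 16 tested NF-kB targets, HMC replicate 3 was lowest in 15 and replicate 2 in 0. For example the cytokine CSF2 stood at 11.7, 9.43 and 7.21 FPKM in HMC replicates 1, 2 and 3. Replication genes were highest in HMC replicate 3 in 14 of 14, with sums of 632, 668 and 742 FPKM. Mesenchymal markers were highest in HMC replicate 3 in 7 of 9 and lowest in replicate 2 in 6 of 9. Their sums of 628, 611 and 723 FPKM had the same order as the sums of the 11 rows. The 11 rows summed to 126, 66.3 and 138 FPKM in the same 3 HMC replicates. The part of the differences in NF-kB targets, replication genes and mesenchymal markers in the spread of the 11 rows was not tested.

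Leukocyte markers were low in both cell types apart from CD74 (DHLAG), which epithelial cells can also express. Of 18 listed markers 12 were matched, and CD74 stood at 413, 397 and 417 FPKM in HMC. Without it the other 11 summed to 20.9, 20.6 and 15.4 FPKM in HMC and to 14.2 to 14.6 FPKM in DPC. Of the 12 matched, 6 were tested, of which 3 were higher in HMC, 1 was higher in DPC and 2 did not pass. The median HMC range of the tested markers was 0.45, beside 0.17 for all genes. PTPRC, found on all leukocytes, was among the markers not matched. Picked after their values were seen, ITGAM (CD11B), CSF1R (FMS), CD3E and CD79A (IGA) did not exceed 0.0887 FPKM in any of the 6 libraries. With CD74 the 12 markers summed to 434, 418 and 432 FPKM in HMC replicates 1, 2 and 3, lowest in replicate 2 like the 11 rows, while without it the sum was lowest in replicate 3. Their part in the spread of the 11 rows was not tested.

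The genes whose profile over the 6 libraries was closest to the mean of the 11 rows were found by the root-mean-square distance of gene-centred log2(FPKM + 1) values. That mean profile was -1.02, -1.05 and -1.08 in DPC and 1.36, 0.50 and 1.30 in HMC replicates 1, 2 and 3. The 10 closest were a row without symbol (ENSBGRG00000014043, 0.11), EPSTI1 (0.12), IRF8 (0.15), SAMD9 (C7orf5, 0.16), DHX58 (0.16), HBA (0.17), ENSBGRG00000016186 (0.19), CCDC69 (0.21), UNQ2426/PRO4985 (0.21) and a second row called KRT5 (0.21). None exceeded 1.57 FPKM in a DPC library. IFIH1, at 0.21, was the closest of the 11 rows themselves, and ISG15, at 1.04, the farthest.

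The table's own annotation names antiviral functions for part of the rows. Since the genes were chosen as known interferon-stimulated genes, their share with such a term is a description and gives no separate support. "Defense response to virus" was attached to 6 of the 11 rows and to 121 of 13567 annotated rows (0.892%). The 6 were ISG15, MX2, RSAD2, IFIH1, IFIT2 and IRF9. Leaving out the 11 rows, 96 tested genes carried that term. Of these, 50 were higher in HMC (52.1%, beside 46.2% of all genes tested). Another 16 were higher in DPC (16.7%, beside 29.7%), and 30 did not pass. HMC replicate 2 was lowest in 40 (41.7%, beside 28.8%).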

How the data were processed

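Per the labels' protocols, Trizol was used for RNA and a TruSeq stranded kit for mRNA libraries. The authors deposited 1 table of FPKM, 1 column per library. Tools named in the submitters' processing notes, with no roles, are DESeq 1.20.0, HISAT2 2.2.1.0 and Trimmomatic. Read counter, genome build and annotation: not given in the sources used here. FPKM corrects for gene length and total fragments, not for RNA composition. Each gene's values are multiples of 1 read's worth, which gave the recovered reads.

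DPC and HMC were compared on log2(FPKM + 1) by limma 3.58.1 (R 4.3.3; trend on, two-sided) over genes averaging 0.5 FPKM or more, with Benjamini-Hochberg adjustment over all genes and a threshold of 0.05. The procedure was tested on simulated data. Tables and figures used Python 3.11.15, numpy 2.4.6, pandas 2.3.3 and matplotlib 3.10.9.

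The genes and lists were chosen with earlier results of these data known. By rule, the text names all 10 genes and, per list, genes chosen from the 3 largest differences, the most abundant gene and the 3 widest HMC ranges, plus fixed genes such as STAT2 and IFIT3. A few genes selected this way are not reported here. Other listed genes given as neighbours, exceptions or examples were chosen after their values were seen. Older table symbols stand in parentheses, and matches through older symbols were read against the table's annotation. The alternatives tried were another pseudocount, other filters, 2 rescalings, no trend, a replicate block and each replicate left out. Members of gene families such as IFIT, HERC, OAS and IFITM may share reads. No sequence was used here, and RefSeq's table for the yak assembly Bosgru_T2T1.0 served only for gene names and gene order.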

Additional observations from a re-analysis of the deposited data

How the results depend on the processing

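With 3 libraries per group, precision is limited, and low levels rest on few reads, such as the 4 reads of IFI44 in HMC replicate 2. The 11 rows kept HMC above DPC under all alternatives run. Their median log2 difference of -1.92 became -2.53 with a pseudocount of 0.1 and -3.09 with a filter at 5 FPKM, which only 4 rows passed, and lay between -1.79 and -2.01 when 1 replicate was left out. HMC replicate 2 was lowest in 44 of 84 other pathway genes, and in 28 of 63 at the 5 FPKM filter. Of those 84, the 13 higher in DPC became 21 after quantile normalization. IFNGR2 turned from -0.16 to 0.15 there, and stood at -0.01 after median-of-ratios scaling. With current symbols only, an alternative chosen after seeing the data, 29 of 40 were higher in HMC, 6 were higher in DPC, and HMC replicate 2 was lowest in 22. Calls over all genes numbered 9020, and 8560 to 8757 with 1 replicate left out, while the pathway counts were 53 to 55 and 12 to 13. The share of calls higher in DPC was 39.1% as deposited, 48.8% after median-of-ratios and 53.8% after quantile normalization. With the replicate number as a block (replicate block), 8924 genes passed, and 54 and 14 of the 84. Same-numbered DPC and HMC libraries correlated by 0.02, 0.03 and 0.01 in their deviations from the group means, and not every library correlated best with its own number, so no pairing was taken. The cause of these shifts was not tested, except that filters leave fewer genes.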

Other observations

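One row stood opposite to the 11 rows between the cell types while sharing the order of RSAD2 among the matrix cultures. It is called QnpA-13470 in the table, carries annotation for the response to type I interferon, and was named after its values were seen. It stood at 72.3, 72.7 and 69.7 FPKM in DPC and at 8.70, 2.45 and 3.85 FPKM in HMC (log2 difference 3.73, limma adjusted p = 1.03e-05). RTP4 (IFRG28), a chaperone gene that interferon induces, was also higher in DPC (1.72, limma adjusted p = 2.23e-06), as was the chemokine CCL5 (SCYA5; 1.12, limma adjusted p = 1.07e-05). The chemokines CXCL9 and CXCL10 did not exceed 0.0458 FPKM in any of the 6 libraries.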
